A study of Mus musculus with 10 samples.

Results

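The genes described are 9 members of the CC chemokine system that draw monocytes into tissue: the ligands Ccl2, Ccl7, Ccl8, Ccl12, Ccl3, Ccl4 and Ccl5 and the receptors Ccr1 and Ccr2. They were taken by gene name from a table of 43346 mouse genes, where each of the 9 is listed once, and all 9 passed the filter on low values described with the processing. RNA of the outflow vein of an arteriovenous fistula, a direct joining of an artery to a vein, was sequenced in 10 libraries, 5 from mice given antibody and 5 from mice given vehicle. All animals were of a strain given as C57, carried a human CX3CR1 knock-in, and had chronic kidney disease, induced 28 days before the carotid artery and the jugular vein were used for the fistula. Antibody at 30 mg/kg, or the same volume of vehicle, was given 2 times per week by the intraperitoneal route, and veins were collected at day 7 of the fistula. The treatment text gives human CX3CR1 as the antibody's target and the design text gives fractalkine, the ligand of CX3CR1, so the target is not settled by the labels; the animals' age and sex are not given there, no group without kidney disease or without a fistula was analysed here, and the labels do not say that each library is a separate animal, so p-values measure the spread between these libraries, which may be technical in part.

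CC chemokines are small secreted proteins, named for a pair of adjacent cysteines, that bind G protein-coupled receptors on leukocytes and steer their movement. CCR2 on classical monocytes answers to CCL2, CCL7 and mouse CCL12, and this pathway releases monocytes from bone marrow and brings them to inflamed vessels. CCR1, found on monocytes and neutrophils, answers to CCL3, CCL5 and CCL7, while mouse CCL8 acts mainly through CCR8. Monocytes that enter an injured vein wall become macrophages, which are known in the thickening wall of fistula veins.

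The libraries held 4282872 to 34271554 reads over the table, from 4282872 to 20245837 in the antibody group and from 10648088 to 34271554 in the vehicle group. The cell types of a vein were read in every library: the 6 endothelial markers summed to 139 to 181 RPKM (reads scaled to gene length and to the depth of the library), the 5 smooth muscle markers to 233 to 478 RPKM and the 5 fibroblast markers to 3294 to 5254 RPKM. All 9 monocyte markers and all 9 macrophage markers were also read in each library. Transcripts of tissue outside the vessel wall were present too, since 5 skeletal muscle markers summed to 279 to 5443 RPKM and 5 kidney tubule markers to 3.04 to 59.6 RPKM, with Kap, Umod and Slc34a1 at 0 in some libraries. In whole tissue, a lower level may come from fewer cells of a type or from less RNA per cell, and these cannot be told apart.

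Ccl8, Ccl7 and Ccl2, ligands of the Ccl2 gene cluster, were the most abundant RNAs of the 9 genes, in that order of mean level. RPKM is scaled by gene length, so levels of different genes can be set side by side. Over the 10 libraries the mean level was 158 ± 49.0 RPKM (SD, n = 10) for Ccl8, 42.5 ± 6.55 RPKM for Ccl7, 26.5 ± 3.87 RPKM for Ccl2, 13.3 ± 4.22 RPKM for Ccl12, 11.5 ± 4.81 RPKM for Ccr2, 10.3 ± 5.70 RPKM for Ccl3, 7.64 ± 3.75 RPKM for Ccr1, 5.20 ± 2.78 RPKM for Ccl4 and 3.78 ± 2.09 RPKM for Ccl5. Ccl8 was at the 98.3 percentile of the 17859 genes tested and Ccl5 at the 46.6 percentile. Neighbours in this order were compared within each library by an exact two-sided sign-flip permutation test of the log2 ratio, adjusted by the Benjamini-Hochberg method over the 8 pairs of neighbours. Ccl8 exceeded Ccl7 by 3.56-fold, in 10 of 10 libraries (exact adjusted p = 0.0104). Ccl7 exceeded Ccl2 by 1.59-fold and Ccl2 exceeded Ccl12 by 2.02-fold, each in 9 of 10 libraries (exact adjusted p = 0.0104 for each). Ccr1 exceeded Ccl4 by 1.47-fold in 9 of 10 libraries (exact adjusted p = 0.0391), a difference that missed the threshold when any library other than vehicle replicate 1 was left out (exact adjusted p up to 0.0781). Ccl12 and Ccr2 (ratio 1.21, exact adjusted p = 0.363), Ccr2 and Ccl3 (ratio 1.18, exact adjusted p = 0.362), Ccl3 and Ccr1 (ratio 1.26, exact adjusted p = 0.167), and Ccl4 and Ccl5 (ratio 1.34, exact adjusted p = 0.0844) did not pass the test. Of these, Ccl3 over Ccr1 passed without vehicle replicate 2 (exact adjusted p = 0.0104) and Ccl4 over Ccl5 without antibody replicate 5 (exact adjusted p = 0.0312).

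**Figure D1:**
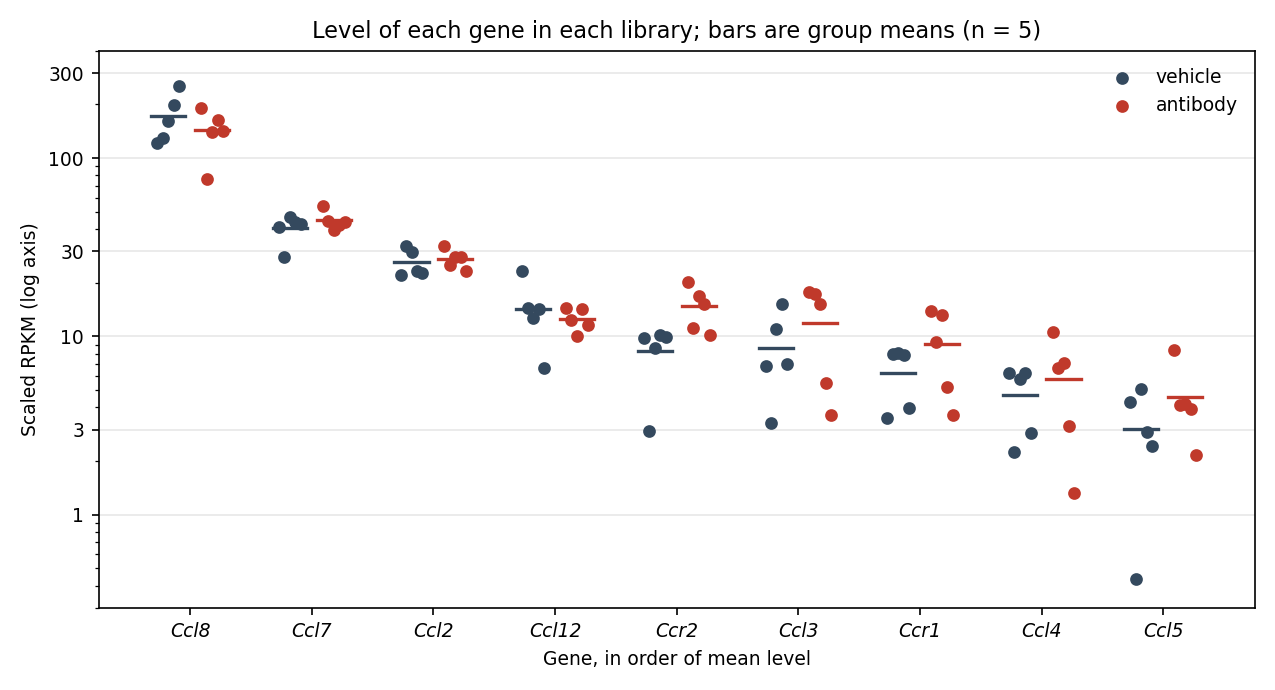
Scaled RPKM on a log axis for each of the 9 genes, ordered by mean level, with 1 point per library (vehicle in dark blue, antibody in red) and bars at the group means, n = 5 per group. Ccl8 lies above the other genes in every library, and Ccr2 is the gene whose 5 antibody points all lie above its 5 vehicle points under this scaling, though not with the median of ratios or totals only.

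The genes lie in 3 places of the mm10 build, by the coordinates of the table, and all are annotated as protein-coding. Ccl2 (chromosome 11, 82035571 to 82037453), Ccl7 (82045712 to 82047525), Ccl12 (82101845 to 82103400) and Ccl8 (82115185 to 82116799) lie in this order on the plus strand of chromosome 11. Ccl5 (83525778 to 83530518), Ccl3 (83647844 to 83649355) and Ccl4 (83662584 to 83664683) lie farther along the same chromosome, with Ccl4 on the plus strand and Ccl5 and Ccl3 on the minus strand. Ccr1 (123962126 to 123968692, minus strand) and Ccr2 (124101950 to 124113557, plus strand) lie on chromosome 9. In GENCODE M21 the ligand genes have up to 3 exons in a transcript, Ccr1 up to 2 and Ccr2 up to 4. No stretch of 50 bases of the transcripts of the 7 ligands or of Ccr1 recurs in a transcript of another gene, and 1.91% of such stretches of Ccr2 do. The span of Ccl2 holds Gm17268, a gene of 66 bp at 0 to 2.38 RPKM.

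The region before the start of 3 members is printed because Ccl12 and Ccl8 are neighbours of shared orientation whose levels differ widely, and because Ccr2 had the largest difference between the groups. The sequences are the 250 bases before the RefSeq start on build GRCm38.p6, plus strand, 5′ to 3′, at chr11:82101595-82101844 for Ccl12, chr11:82114935-82115184 for Ccl8 and chr9:124101933-124102182 for Ccr2, and capitals mark the letters TATAAA of a TATA box.
Ccl12: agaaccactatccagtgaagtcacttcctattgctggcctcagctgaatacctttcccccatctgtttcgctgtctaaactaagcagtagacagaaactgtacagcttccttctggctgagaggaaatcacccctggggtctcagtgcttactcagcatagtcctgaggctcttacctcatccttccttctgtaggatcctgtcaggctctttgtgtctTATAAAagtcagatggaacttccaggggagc
Ccl8: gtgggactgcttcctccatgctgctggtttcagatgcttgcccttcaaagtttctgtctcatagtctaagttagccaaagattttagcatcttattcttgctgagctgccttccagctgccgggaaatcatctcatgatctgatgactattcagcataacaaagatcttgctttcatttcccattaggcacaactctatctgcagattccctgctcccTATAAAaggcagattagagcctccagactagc
Ccr2: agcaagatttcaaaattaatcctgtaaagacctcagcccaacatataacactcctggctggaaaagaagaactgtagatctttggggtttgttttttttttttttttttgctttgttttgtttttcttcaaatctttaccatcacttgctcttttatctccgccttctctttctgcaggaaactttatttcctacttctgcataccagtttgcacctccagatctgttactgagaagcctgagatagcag

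The box begins 31 bases before the start of Ccl12 and 32 bases before that of Ccl8. The longest runs of letters that these windows share are 3 of 8 bases: GGAAATCA, which begins 128 bases before the start in each, TCAGCATA, which begins 98 bases before the start of Ccl12 and 100 before that of Ccl8, and TATAAAAG at the box. The Ccr2 window has no TATAAA, and its RefSeq start lies 233 bases after the start of the gene in the table. RefSeq windows of 250 bases before to 50 bases after the start were at hand for 5 members, Ccl8, Ccl12, Ccl3, Ccr1 and Ccr2. TATAAA on the gene's strand was in 2 of these 5 and in 8.32% of 32851 such windows of all genes. A form of the NF-kappaB motif and TGANTCA, a form of the AP-1 motif, were searched on both strands and were in 0 of the 5, against 1.63% and 7.81% of all windows, which says only that these letters are not in these windows.

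None of the 4 members in the Ccl2 cluster passed the test between antibody and vehicle in limma, and the intervals were narrow for Ccl2 and Ccl7 and wider for Ccl8 and Ccl12. Levels below are RPKM scaled for library composition. Each difference is antibody minus vehicle in log2(RPKM + 0.5), a scale on which changes of low genes come out smaller, and comes from limma with a trended variance, with p-values adjusted over all 17859 genes tested.

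Ccl2, the main monocyte attractant, stood at 32.0, 25.0, 27.7, 27.8 and 23.2 RPKM in antibody replicates 1 to 5 and at 22.1, 32.3, 29.6, 23.3 and 22.5 RPKM in vehicle replicates 1 to 5. The groups overlap throughout, with vehicle replicate 2 and antibody replicate 1 at the top. The fold was 1.05 (95% interval 0.856 to 1.29, log2 0.07, SE 0.13, limma adjusted p = 0.906).

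Ccl7, which acts on CCR2 and CCR1, stood at 54.1, 44.1, 39.7, 41.9 and 43.7 RPKM in antibody and at 41.1, 27.8, 46.9, 43.6 and 42.6 RPKM in vehicle libraries. Antibody replicate 1 was highest and vehicle replicate 2 lowest, and the other 8 lay between 39.7 and 46.9 RPKM in mixed order. The fold was 1.12 (95% interval 0.891 to 1.40, limma adjusted p = 0.813).

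Ccl8 stood at 191, 76.8, 140, 164 and 143 RPKM in antibody and at 121, 130, 161, 199 and 255 RPKM in vehicle libraries. The highest 2 values were in vehicle and the lowest was in antibody replicate 2, with the rest interleaved. The log2 difference was -0.28 with an SE of 0.27 (fold 0.823, 95% interval 0.541 to 1.25, limma adjusted p = 0.818).

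Ccl12, a CCR2 ligand found in mouse, stood at 14.3, 12.3, 9.99, 14.2 and 11.6 RPKM in antibody and at 23.1, 14.4, 12.7, 14.2 and 6.64 RPKM in vehicle libraries. The vehicle group held the highest and the lowest value, and its SD of 5.89 RPKM stood beside 1.84 RPKM in the antibody group, a difference in spread that was not tested. The log2 difference was -0.09 with an SE of 0.26 (fold 0.938, 95% interval 0.628 to 1.40, limma adjusted p = 0.938), and it was 0.10 without vehicle replicate 1.

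Ccl3, Ccl4 and Ccl5, which code for inflammatory chemokines of macrophages and lymphocytes, spread widely between libraries of each group, and their means were higher in antibody veins by less than that spread. Ccl3 stood at 17.7, 17.3, 15.2, 5.50 and 3.64 RPKM in antibody replicates 1 to 5 and at 6.81, 3.28, 11.02, 15.1 and 6.99 RPKM in vehicle replicates 1 to 5. Antibody replicates 1, 2 and 3 lay above all vehicle libraries, while antibody replicates 4 and 5 lay among the 4 lowest values of the 10. The fold was 1.28 (95% interval 0.596 to 2.74, limma adjusted p = 0.870).

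Ccl4 stood at 10.5, 6.61, 7.12, 3.15 and 1.33 RPKM in antibody and at 6.19, 2.26, 5.77, 6.20 and 2.87 RPKM in vehicle libraries. As for Ccl3, antibody replicates 1, 2 and 3 were the highest 3, and antibody replicate 5 was here the lowest of all. The fold was 1.09 (95% interval 0.529 to 2.24, limma adjusted p = 0.958), and its log2 value of 0.12 changed sign when antibody replicate 1 (-0.15), antibody replicate 3 (-0.01), vehicle replicate 2 (-0.08) or vehicle replicate 5 (-0.01) was left out.

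Ccl5, made by T and NK cells and by macrophages, stood at 8.36, 4.10, 4.20, 3.90 and 2.16 RPKM in antibody and at 4.26, 0.436, 5.06, 2.92 and 2.44 RPKM in vehicle libraries. Vehicle replicate 2 stood apart at the bottom, with 9 reads, and antibody replicate 1 at the top, while the other 8 libraries overlapped. The fold was 1.55 (95% interval 0.758 to 3.17, log2 0.63, SE 0.47, limma adjusted p = 0.781), and the log2 value was 0.21 without vehicle replicate 2.

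The receptor Ccr2 had the largest difference of the 9 genes. It stood at 20.1, 11.2, 16.9, 15.2 and 10.2 RPKM in antibody replicates 1 to 5 and at 9.82, 2.95, 8.59, 10.2 and 9.92 RPKM in vehicle replicates 1 to 5. All 5 antibody libraries lay above all 5 vehicle libraries, by a margin of 10.17 against 10.16 RPKM between antibody replicate 5 and vehicle replicate 4. Antibody libraries averaged 14.7 ± 4.11 RPKM (SD, n = 5 libraries) and vehicle libraries 8.29 ± 3.04 RPKM, a fold of 1.81 (95% interval 1.11 to 2.96, log2 0.86, SE 0.32). The exact two-sided permutation test of this gene alone over all assignments of the libraries to the groups gave p = 0.00794, the smallest it can give. Groups that do not overlap always give this value, so it adds nothing to the separation. It was not adjusted over the 9 genes, of which the others had an exact p from 0.310 (Ccl5) to 0.786 (Ccl4). The limma p of Ccr2 was 0.0217 before and 0.739 after adjustment over all genes, so Ccr2 did not pass the threshold. Groups that do not overlap occurred in 1.11% of all genes tested, and with antibody higher in 0.666%. The separation rests on the scaling: with the median of ratios the lowest antibody value was 10.05 and the highest vehicle value 10.11 RPKM, and with totals only 10.24 and 10.34 RPKM, so that the groups overlapped in 1 pair of libraries (exact p = 0.0159 in each case). Without vehicle replicate 2, whose level of 2.95 RPKM stood apart from the other vehicle libraries, the log2 difference was 0.55 (exact p = 0.0476).

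Ccr1, the second receptor, stood at 13.9, 9.29, 13.2, 5.18 and 3.60 RPKM in antibody and at 3.47, 7.92, 8.07, 7.87 and 3.94 RPKM in vehicle libraries. Antibody replicates 1, 2 and 3 were the highest 3, as for Ccl3 and Ccl4, and antibody replicates 4 and 5 lay within the vehicle range. The fold was 1.33 (95% interval 0.741 to 2.40, limma adjusted p = 0.812).

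Of the 9 genes, 0 passed an adjusted p below 0.05 in limma, as for all genes tested, of which 0 of 17859 (0%) passed. By limma-voom, a test on read counts with weights for precision, 0 genes passed as well. At an unadjusted p below 0.05 there was 1 of the 9, Ccr2, where 1166 of all genes (6.53%) met that limit in limma, 3.55% with the higher mean in antibody, and 1061 in limma-voom. The mean log2 level was higher in antibody in 7 of the 9 and lower in Ccl8 and Ccl12, against 48.8% higher of all genes. The median log2 difference was 0.16 over the 9 genes and -0.01 over all genes tested. The width of the intervals followed the spread between libraries: the residual SD on the log2 scale was 0.21 for Ccl2 and 0.24 for Ccl7, and 0.90 for Ccl3, 0.85 for Ccl4 and 0.84 for Ccl5.

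**Figure D2:**
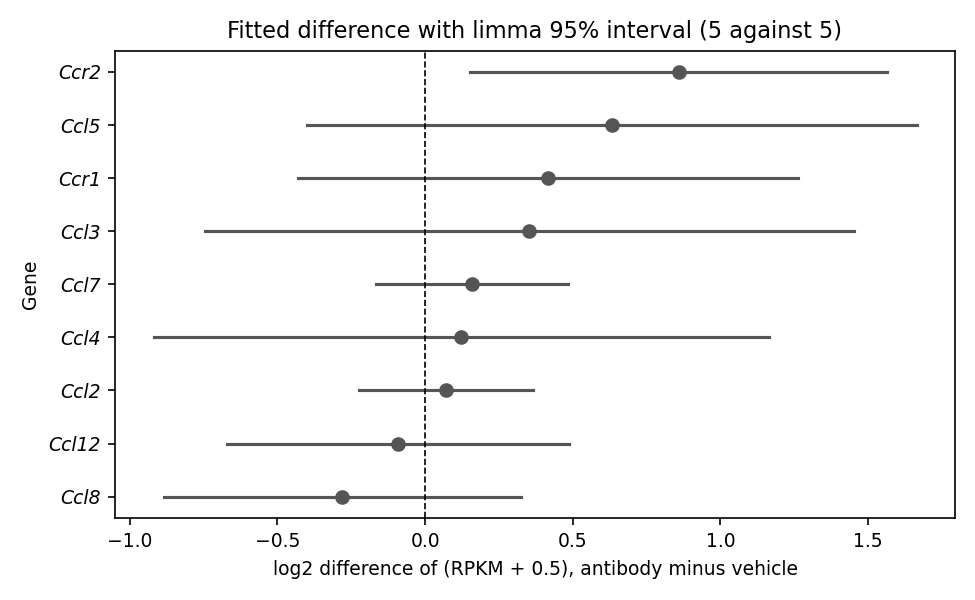
Fitted log2 difference of (RPKM + 0.5), antibody minus vehicle, with limma's 95% interval for each of the 9 genes, from 5 against 5 libraries. The interval of Ccr2 alone lies to the right of 0, before any adjustment for the number of genes, and those of Ccl2 and Ccl7 are the narrowest.

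Ccl3 and Ccl4 varied together over the libraries, and no other pair of the 9 genes passed the test across them. Over the 10 libraries, the 36 pairs of genes were compared by Pearson's r and Spearman's rho on the log2 scale, with permutation p-values from 100000 resamples, adjusted over the 36. The pair Ccl3 and Ccl4, neighbours on chromosome 11, had r = 0.90 (adjusted permutation p = 0.00684) and rho = 0.92 (adjusted permutation p = 0.0173). The r of this pair was 0.81 without the 2 libraries farthest from the median of Ccl3 and 0.90 on deviations from the group means. It was the only pair of the 36 with an adjusted p below 0.05 by either measure, with 11 pairs below 0.05 by Pearson's r before adjustment. Leaving out antibody replicate 1, antibody replicate 3 or vehicle replicate 4 left 0 pairs.

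Ccl2 was close to 0 in correlation with the members nearest to it on chromosome 11, with r = -0.16 for Ccl7 (adjusted permutation p = 0.956), -0.02 for Ccl8 (adjusted permutation p = 0.977) and 0.09 for Ccl12 (adjusted permutation p = 0.956). At this number of libraries such values do not show that the genes vary independently. Ccr2 and Ccl5 had r = 0.87 (adjusted permutation p = 0.0715) but rho = 0.36 (adjusted permutation p = 0.851), and r = 0.18 without the 2 libraries farthest from the median of Ccl5, so that the relation over all libraries rests on those. On deviations from the group means r of this pair was 0.88 (adjusted permutation p = 0.0247) and rho 0.75, and with totals only r was 0.88 (adjusted permutation p = 0.0316). Ccl7 and Ccl5 also passed on deviations from the group means, with r = 0.88 (adjusted permutation p = 0.0247). The permutations of deviations moved values freely between groups whose means had been removed, so these p-values may be too small. Over all libraries Ccl7 and Ccl5 had r = 0.89 and rho = 0.47 (adjusted permutation p = 0.0715 and 0.539). Its r was 0.03 without the 2 libraries farthest from the median of Ccl7, so that this relation also rests on those. Ccr2 and Ccl2, the receptor and its main ligand, had r = -0.11 and rho = 0.09 (adjusted permutation p = 0.956 and 0.944). Without vehicle replicate 2, r was 0.65 for Ccr2 and Ccl2 and 0.61 for Ccl2 and Ccl7 (adjusted permutation p = 0.256 for each). The values of these pairs over all libraries thus rest on that library. With Ccl8 and Ccl12, Ccl2 stayed near 0 without it, at r = 0.07 and 0.02. The libraries at the extremes differed: antibody replicate 1 was the highest of the 10 for 6 genes, and vehicle replicate 2 the lowest for 4 genes, Ccl7, Ccl3, Ccl5 and Ccr2, while it was the highest for Ccl2.

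**Figure D3:**
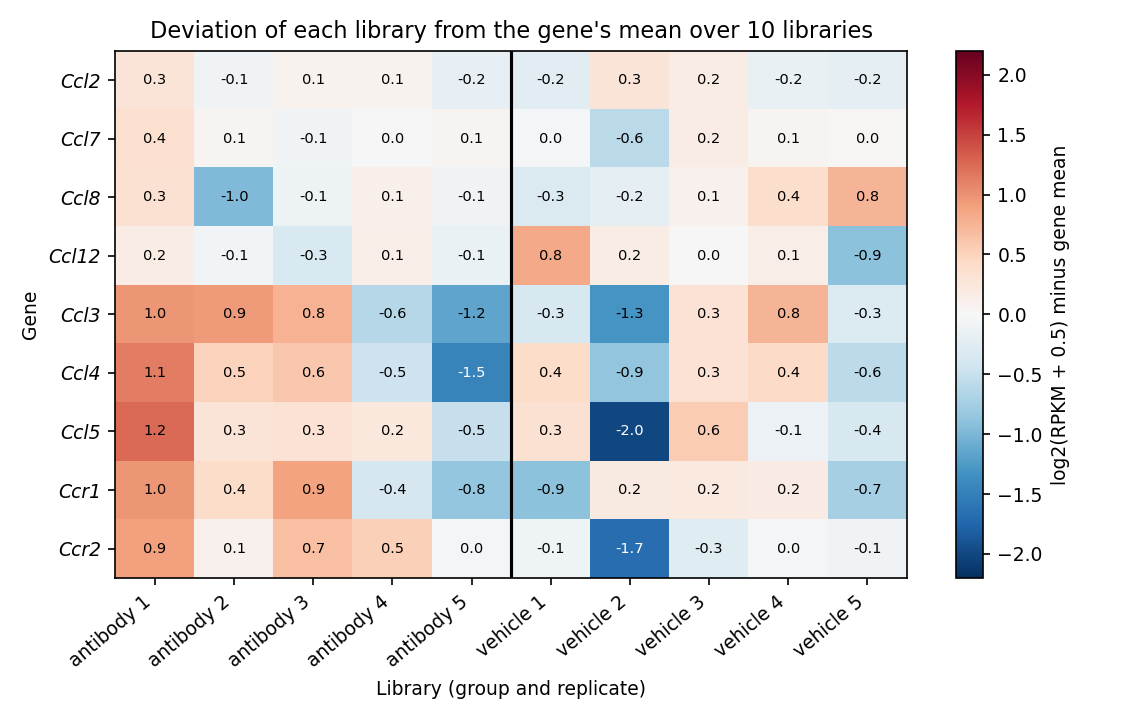
Deviation of each library from the gene's mean over the 10 libraries, on the log2(RPKM + 0.5) scale, with genes in rows, libraries in columns and the value printed in each cell. Antibody replicate 1 is above the mean in all 9 rows, vehicle replicate 2 is lowest in 4, and the rows of Ccl3 and Ccl4 follow each other.

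Summed markers of other leukocytes moved with some of these genes by Pearson's r, in relations that did not pass by Spearman's rho. The 9 neutrophil markers (S100a8, S100a9, Csf3r, Cxcr2, Retnlg, Ly6g, Camp, Ngp and Ltf) summed to 53.0 to 357 RPKM in antibody and 22.3 to 139 RPKM in vehicle libraries, and of these Ly6g, Camp and Ngp were at 0 in some libraries. The sum was 244, 237 and 357 RPKM in antibody replicates 1, 2 and 3, the libraries highest in Ccl3, Ccl4 and Ccr1, and 54.8 and 53.0 RPKM in antibody replicates 4 and 5. The relations of the 9 genes with 12 marker sums were computed after the values had been seen, as a family of 108. Of these, 2 had an adjusted permutation p below 0.05 by Pearson's r and 0 by Spearman's rho. Ccl3 followed the neutrophil sum with r = 0.92 (adjusted permutation p = 0.0454) and rho = 0.85 (adjusted permutation p = 0.174), r = 0.92 without the 2 libraries farthest from the median sum and 0.97 on deviations from the group means. For Ccl4 r was 0.77 and rho 0.85 (adjusted permutation p = 0.166 and 0.174), for Ccr1 r was 0.74 and rho 0.75 (adjusted permutation p = 0.166 and 0.242), and for Ccr2 r was 0.71 and rho 0.76 (adjusted permutation p = 0.166 and 0.242). The sum of the 4 adipocyte markers (Adipoq, Plin1, Cfd and Ucp1) ran the other way, though the single markers were not looked at by library. It was 224, 132 and 114 RPKM in antibody replicates 1, 2 and 3, 823 and 624 RPKM in antibody replicates 4 and 5, and 257 to 616 RPKM in vehicle libraries. With this sum r was -0.74 for Ccl3 and for Ccl4 and -0.73 for Ccr1 (adjusted permutation p = 0.166 for each), and rho was -0.79, -0.83 and -0.73 (adjusted permutation p = 0.227, 0.186 and 0.242). The part of neutrophil or of adipose content in the differences of these genes was not tested.

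**Figure D4:**
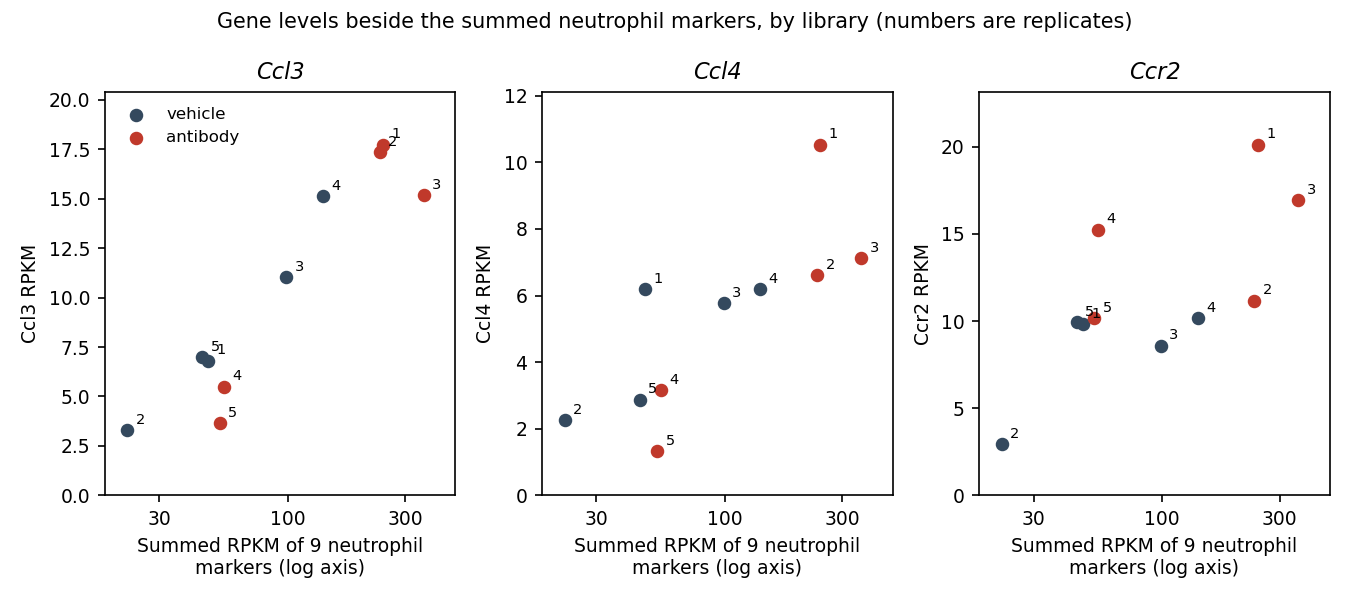
RPKM of Ccl3, Ccl4 and Ccr2 on linear axes from 0, against the summed RPKM of the 9 neutrophil markers on a log axis, with 1 point per library and its replicate number (vehicle in dark blue, antibody in red). Ccl3 is high in antibody replicates 1, 2 and 3 and vehicle replicate 4, the 4 libraries with the highest sums, from 139 to 357 RPKM.

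The 11 T and NK cell markers (Cd3d, Cd3e, Cd3g, Cd2, Cd8a, Nkg7, Klrb1c, Gzma, Gzmb, Prf1 and Ncr1) summed to 6.26 to 31.0 RPKM in antibody and 2.61 to 10.1 RPKM in vehicle libraries, with Prf1 and Ncr1 at 0 in some. Ccr2 followed this sum with r = 0.91 (adjusted permutation p = 0.0454) and rho = 0.61 (adjusted permutation p = 0.559), and r fell to 0.67 without the 2 libraries farthest from the median sum. Ccl5 had r = 0.91 and rho = 0.78 (adjusted permutation p = 0.0616 and 0.227). The highest T and NK cell sum was in antibody replicate 1 and the lowest in vehicle replicate 2, the libraries at the extremes of Ccr2 and Ccl5, and the part of T and NK cells in those values was not tested. These relations were not particular to T and NK cells, as marker sums of some other blood cells also ran with both genes. With the neutrophil sum r was 0.71 for Ccr2 and 0.70 for Ccl5 (adjusted permutation p = 0.166 for each). By contrast, the 9 monocyte markers (Ly6c2, Csf1r, Itgam, Fcgr1, Chil3, Plac8, F13a1, Ms4a6c and Cd14) summed to 198 to 285 RPKM in antibody and 207 to 303 RPKM in vehicle libraries. The 9 macrophage markers (Adgre1, Cd68, C1qa, C1qb, C1qc, Mrc1, Cd163, Mertk and Lyve1) summed to 656 to 912 RPKM and 646 to 1055 RPKM. Taken singly, 6 monocyte markers were higher in antibody and 3 lower (median log2 0.17). Their sum nonetheless averaged less with antibody, at 229 ± 35.7 against 247 ± 36.3 RPKM. Macrophage markers were lower in antibody for 8 and higher for 1 (median log2 -0.13), with sums averaging 731 ± 104 against 889 ± 171 RPKM. In each list 0 markers passed in limma, and the sums were not tested between the groups. The monocyte sum was highest, at 303 RPKM, in vehicle replicate 2, the library lowest in Ccr2, and the r between Ccr2 and this sum was -0.32 (rho -0.26, adjusted permutation p = 0.827 and 0.972). Ccl2 had r = 0.68 and rho = 0.52 with the monocyte sum (adjusted permutation p = 0.242 and 0.754).

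The rest of the CC family gave 0 genes past the threshold. Of 16 other CC ligands 15 were in the table and 10 were tested by limma, 5 higher and 5 lower in antibody, with a median log2 difference of 0.02 and 0 passing. Of these 10, 1 (Ccl24) had an unadjusted p below 0.05, with the lower mean in antibody, against 6.53% of all genes in either direction. The 4 of smallest p were the eosinophil attractant Ccl24, at 1.84 ± 0.465 against 3.51 ± 1.78 RPKM in vehicle (limma adjusted p = 0.739), the macrophage chemokine Ccl9 (36.8 ± 10.2 against 30.3 ± 8.10 RPKM), the dendritic cell chemokine Ccl22 (2.23 ± 1.87 against 1.38 ± 0.709 RPKM) and the lymphoid chemokine Ccl21b (7.71 ± 3.42 against 6.44 ± 3.25 RPKM), a gene with closely similar copies among which reads may be divided. Of the 8 other CC receptors 5 were tested, all 5 with a higher mean log2 level in antibody and 0 passing (median log2 0.15). The eosinophil receptor Ccr3 was at 0.834 ± 0.424 against 0.440 ± 0.281 RPKM (limma adjusted p = 0.739), the lymph node homing receptor Ccr7 at 3.85 ± 3.47 against 2.33 ± 1.52 RPKM, and Ccr6 at 0.403 ± 0.452 against 0.296 ± 0.171 RPKM. Ccr8, the mouse receptor of the abundant Ccl8, fell under the filter and was not tested. All 4 genes listed as atypical or scavenging receptors, which lack the usual signal, were tested, and 0 passed. Ackr1, the chemokine carrier of venules and red cells, was at 9.93 ± 3.01 against 8.68 ± 3.96 RPKM, the scavenger Ackr2 at 2.09 ± 1.10 against 1.64 ± 0.223 RPKM, Ackr4 at 0.158 ± 0.0521 against 0.240 ± 0.183 RPKM and Ccrl2 at 3.45 ± 2.78 against 2.69 ± 0.966 RPKM.

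No gene of signalling below the receptors, and none of those known to induce these chemokines, passed the threshold in limma. Of 18 signalling genes tested 11 were higher and 7 lower in antibody (median log2 0.09), 0 passed in limma, and 1 had an unadjusted p below 0.05, against 6.53% of all genes. This was the kinase gene Jak2, at 21.8 ± 6.54 against 15.3 ± 2.91 RPKM (limma adjusted p = 0.739). Next by p were the phospholipase gene Plcb2 (2.48 ± 0.775 against 1.83 ± 0.107 RPKM), the regulatory subunit gene Pik3r5 of the kinase PI3K-gamma (12.4 ± 3.95 against 9.37 ± 1.66 RPKM) and the arrestin gene Arrb1 (10.6 ± 1.29 against 9.50 ± 0.861 RPKM). Of 18 upstream cytokines, sensors and transcription factors 17 were tested, 13 higher and 4 lower in antibody (median log2 0.12). Again 0 passed in limma, and 5 had an unadjusted p below 0.05, each with the higher mean in antibody, against 6.53% of all genes in either direction. The transcription factor gene Cebpb was at 33.1 ± 3.06 against 21.3 ± 5.83 RPKM (log2 0.67, SE 0.18, limma adjusted p = 0.739), and Fos, the last of the 5 and named after its value was seen, at 108 ± 40.3 against 63.0 ± 29.9 RPKM. The other 3, Il6, Relb and Il1b, had log2 differences of 0.99, 0.38 and 1.92 (limma adjusted p = 0.739 for each). Tnf, an inducer of Ccl2 named here for that role, was at 2.52 ± 0.881 against 2.60 ± 1.11 RPKM (limma adjusted p = 0.992).

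The genes most like 3 of the members across the libraries were sought among 13115 genes with a mean log2 CPM of at least 1, by Pearson's r over the 10 libraries, given as a description with no test. For Ccl2 these were Cask (r = 0.93, rho = 0.98), Ercc3, Vps11, Acbd5 and Sufu, the last 4 with r from 0.88 to 0.89, and none of them is a chemokine or receptor gene. For Ccl5 they were Pilrb1 (r = 0.97, rho = 0.76), the receptor gene Ccr7 (r = 0.96, rho = 0.93), Cd300ld, the Fc receptor gene Fcgr4 and the Toll-like receptor gene Tlr1 (r = 0.95, rho = 0.83). For Ccr2 they were Ciita, the activator of MHC class II genes (r = 0.98, rho = 0.75), Plbd1, Lst1, Sirpb1a (r = 0.95, rho = 0.92) and Slfn1. These were the highest of 13115 values each.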

How the data were processed

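RNA of fistula veins was sequenced in 10 libraries, prepared with TruSeq V2 reagents and an input of 0.5 µg, per the labels' protocols. The genome build in the submitters' processing notes is mm10. The aligner, the counter and any use of strand were not given in the sources used here, so reads of antisense or overlapping genes cannot be told apart. The authors deposited RPKM per gene and library, with gene lengths, per the file headers; 42462 gene IDs were named from the reference table. Multiplying RPKM by length plus 1 bp gave whole reads for 100% of 293853 values above 0 within 0.001, which gives the depth. The limit that a count of 0 allows (3 reads, counting error only) ran from 0.0875 to 0.70 CPM over the libraries.

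Genes were kept with at least 0.513 CPM (10 reads at median depth) in at least 5 libraries and 15 reads in all. Libraries were scaled by trimmed means of M values over the kept genes (0.841 to 1.13). limma 3.58.1 in R 4.3.3 was fitted to log2(RPKM + 0.5) with group as the only term, two-sided, with Benjamini-Hochberg adjustment over 17859 genes. The script was tested on simulated data. The main test used RPKM after this scaling, not as deposited, and limma-voom was run on the recovered reads as an alternative. The alternatives were other scalings, pseudocounts and filters, a fit blocked on replicate number, limma-voom, quality weights, single libraries left out in turn, and the 4 libraries highest in Kap left out together.

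Named genes are the 9 members, up to 4 tested genes of smallest p per pathway list, and the 5 genes most like Ccl2, Ccl5 and Ccr2, predicted symbols passed over. Fos, Tnf and Gm27598 are named beyond that rule. A gene that the rule also names, and a marker list, are not reported here. Members and lists were chosen with earlier results of these data known. Sequences are from RefSeq tables, and 5 of 9 members matched. Figures were drawn with matplotlib 3.10.9.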

Additional observations from a re-analysis of the deposited data

Results flagged for a closer look

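Ccr2 in vehicle replicate 2 stood at 2.95 RPKM, apart from the other 4 vehicle libraries, which lay between 8.59 and 10.2 RPKM. Its gap to the next value took 0.783 of the group's range, above Dixon's critical value of 0.71 for 5 samples. It was the only one of the 18 groups of values tested (9 genes in 2 treatments) to pass that value, a value that chance passes in about 5% of groups. The same library was also lowest in Ccl5, with 9 reads, in Ccl7 and in Ccl3. It was lowest in the summed T and NK cell markers (2.61 RPKM), the summed neutrophil markers (22.3 RPKM) and further summed markers of blood cells. It was highest in Ccl2, in the summed monocyte markers (303 RPKM) and in the summed smooth muscle markers (478 RPKM). Its depth of 20916617 reads was within the range of the others.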

How the results depend on the processing

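For each of the 9 genes the adjusted p stayed above 0.05 under every alternative (smallest 0.554, for Ccr2 without antibody replicate 5). The direction of Ccr2, Ccl5, Ccl3, Ccr1, Ccl7 and Ccl8 was kept in each, with Ccr2 between 0.55 and 1.17 in log2 difference. Ccl2 turned to -0.039 without the 4 libraries highest in Kap, Ccl12 to 0.10 without vehicle replicate 1 (range -0.33 to 0.10 with single libraries left out), and Ccl4 to -0.10 by limma-voom and to between -0.15 and 0.50 with single libraries left out. The number of the 9 genes higher in antibody was 6 to 8, and 6 of 8 under the stricter filter, where Ccl5 was not tested. Among other genes named, Ccr6 turned to -0.019 with a pseudocount of 0.1 and -0.045 by limma-voom, and ran from -0.17 to 0.26 with single libraries left out. Over those, Ackr2 ran from -0.021 to 0.33, and Ccrl2 from -0.22 to 0.34, with -0.12 by limma-voom.

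With no filter 1 gene was called, the small gene Gm27598, and 1999 had an unadjusted p below 0.05, as more low genes were tested; without the 4 libraries highest in Kap there were 572, with 6 libraries left. With single libraries left out these counts ran from 779 to 1500. Ccr1 over Ccl4 ranged from 0.43 to 0.70 in log2 ratio, Ccl3 over Ccr1 from 0.27 to 0.49 and Ccl4 over Ccl5 from 0.30 to 0.53 with single libraries left out; within vehicle libraries Ccr2 over Ccl3 was -0.010. The pairs of genes that passed numbered 7 with totals only, 3 on deviations from group means, where p-values may be too small, and 0 to 5 with single libraries left out. The causes were not tested.

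With the replicate number as a block the Ccr2 difference was 0.86 (limma adjusted p = 0.683) and 1252 genes had an unadjusted p below 0.05. The titles do not say that the numbers pair animals, so the numbers were not taken as pairs. Same-numbered libraries correlated at -0.10 to 0.35, and only antibody replicate 3 correlated best with the vehicle library of its own number. Read counts were lowest for Ccl5 and Ccl4, with as few as 9 and 11 reads in a library. The 9 reads of Ccl5 were in vehicle replicate 2, a library of 20916617 reads, and the 11 reads of Ccl4 in antibody replicate 5.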
